A study of Homo sapiens with 36 samples.

Results

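The genes DDIT4, NDRG1, SESN2, GADD45A, GADD45B, GADD45G and IRS2 act in growth control and in the response to stress, and the data describe where tagged HIF-α proteins were called around them. A peak was assigned to one of these 7 genes when its summit lay in the gene body or within 50 kb of it, which gave 577 of 213711 peaks. The same rule covers 7 of the 20007 protein-coding genes of the GENCODE 44 annotation. Peaks of different libraries that overlapped by at least 1 bp were merged, and a merged interval called in at least 2 libraries was kept as a consensus region. Of 25783 such regions, 51 belong to the 7 genes, while another 51 of the 577 peaks were seen in a single library.

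Cut&Run, in which an antibody brings a nuclease to chromatin and the released DNA fragments are sequenced, was performed with an anti-V5 antibody in 786-O, an established line from a human clear cell kidney tumor. The line has no working VHL, so HIF-2α is stable in normal oxygen. By the paper, 786-O also lacks functional HIF-1α, through a truncating mutation. The 18 anti-V5 libraries come from 6 lines with 3 replicates each, and each was called against the mouse IgG library that shares its line and replicate number. WT cells carry no tag. The HIF-2α KIN line is 1 clone, A31, with V5 and Halo tags on both copies of endogenous HIF-2α. The other 4 lines are WT cells that stably express a V5-HaloTag fusion from the L30 promoter, so they also hold their own untagged HIF-2α. The fusions are HIF-2α, HIF-1α, HIF-2α/1α (residues 1 to 365 of HIF-2α joined to 364 to 826 of HIF-1α) and HIF-1α/2α (residues 1 to 363 of HIF-1α joined to 366 to 870 of HIF-2α). In the name of a chimera the source of the N-terminal segment, which binds DNA and pairs with HIF-1β (DBD), comes first, and the source of the C-terminal segment with the intrinsically disordered region (IDR) comes second. All 6 lines are 786-O cells, and the peak lists hold no measure by which cell type markers could be checked.

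HIF-α proteins pair with HIF-1β and recognize the hypoxia response element (HRE), a short motif with the core letters ACGTG or GCGTG. DDIT4 (REDD1) is a classical hypoxia target that restrains the kinase complex mTORC1 through the TSC complex, and NDRG1 is a stress and hypoxia marker of many tumor cells. SESN2 (Sestrin 2) restrains mTORC1 as a sensor of leucine, the 3 GADD45 proteins act in cell cycle arrest and stress kinase signaling, and IRS2 is an adaptor of the insulin receptor that feeds the PI3K and mTOR pathway.

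To show the DNA under the calls, the sequence around the summit of widely called regions of 6 of the genes (not NDRG1) is given below in hg38, + strand, 5′ to 3′, each line named by gene and by distance of the summit from the transcription start site (TSS) in bp. Capitals mark each ACGTG or GCGTG and its reverse complement (CACGT or CACGC). The first 3 are DDIT4 regions called in all 15 tagged libraries, the next 2 are those of GADD45B, and the others are the most widely called regions of GADD45G, SESN2, IRS2 and GADD45A, where the GADD45A line is limited to 30 bases because it lies in a UTR. The DDIT4 line at −50 stops short of the TSS.
DDIT4 −12839, chr10:72261005-72261155: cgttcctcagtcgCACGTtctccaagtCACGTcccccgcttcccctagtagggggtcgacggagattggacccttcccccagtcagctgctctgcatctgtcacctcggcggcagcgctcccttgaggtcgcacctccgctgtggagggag
DDIT4 −50, chr10:72273794-72273909: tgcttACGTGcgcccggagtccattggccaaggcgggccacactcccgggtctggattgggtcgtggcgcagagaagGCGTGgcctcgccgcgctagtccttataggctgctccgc
DDIT4 +48477, chr10:72322321-72322471: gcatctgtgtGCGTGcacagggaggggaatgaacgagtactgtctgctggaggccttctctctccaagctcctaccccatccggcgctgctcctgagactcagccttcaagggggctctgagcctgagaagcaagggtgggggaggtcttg
GADD45B +15506, chr19:2491553-2491703: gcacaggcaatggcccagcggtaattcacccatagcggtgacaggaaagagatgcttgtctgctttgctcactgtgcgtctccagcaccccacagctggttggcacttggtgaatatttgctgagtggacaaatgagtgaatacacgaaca
GADD45B +49061, chr19:2525108-2525258: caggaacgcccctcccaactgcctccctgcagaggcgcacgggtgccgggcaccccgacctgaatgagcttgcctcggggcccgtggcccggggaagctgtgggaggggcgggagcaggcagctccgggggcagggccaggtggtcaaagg
GADD45G −42330, chr9:89562607-89562757: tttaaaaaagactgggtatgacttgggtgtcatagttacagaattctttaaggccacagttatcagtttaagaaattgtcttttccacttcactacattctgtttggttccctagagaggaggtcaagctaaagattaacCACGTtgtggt
SESN2 +37385, chr1:28296828-28296978: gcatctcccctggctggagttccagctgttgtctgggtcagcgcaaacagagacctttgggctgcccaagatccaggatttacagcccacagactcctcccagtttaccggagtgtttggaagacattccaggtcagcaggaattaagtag
IRS2 −7827, chr13:109794335-109794485: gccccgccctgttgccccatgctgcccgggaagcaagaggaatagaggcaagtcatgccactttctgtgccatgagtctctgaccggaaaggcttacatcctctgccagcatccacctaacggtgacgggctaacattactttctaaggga
GADD45A +99, chr1:67685286-67685315: gcaagcaaggcgggaggggtggccggagct

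The 3 DDIT4 windows and the GADD45G window hold the HRE letters, and the GADD45B, SESN2, IRS2 and GADD45A windows printed do not. In windows of 101 bases centred on the summit, 10 of the 51 member regions (19.6%) held ACGTG or GCGTG on either strand, against 24.2% of all consensus regions. In windows of 151 bases the counts were 17 of 51 (33.3%) against 35.6%. Among regions called in all 15 tagged libraries the 101-base share was 3 of 9 for the members and 33.3% for all of them. The 3 regions were DDIT4 at −12.8 kb and at −50 bp and the NDRG1 region 4.33 kb into the gene. For comparison, the AP-1 letters TGACTCA or TGAGTCA were in 5 of the 51 windows of 101 bases (9.80%) and in 8.27% of all consensus regions, and the NDRG1 region at −18.8 kb had 1 match 1 bp from its summit. In the RefSeq promoters (GRCh38.p14, 250 bases before to 50 after the TSS), DDIT4 and GADD45B had 4 HRE matches each, GADD45G had 2 and SESN2 and IRS2 had 0, where 48.4% of all 35116 promoters held at least 1. NDRG1 and GADD45A were not among the promoters matched. The motif search reads letters alone, and no test was made of binding to them.

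The lists differ in length, which sets how many weak peaks a locus can show. The 15 tagged lists hold 3984 to 20808 peaks at a depth of 0.241 to 0.624 fragments per base over all 18 libraries, recovered from the deposited values. WT replicate 2 stands apart from the other WT libraries, with 9508 peaks against 392 and 743. In 6 of 6 lines it was replicate 2 whose list was longest. It called 13.7% of all consensus regions and 10 of the 51 member regions, and without it 1 member region, GADD45B at +49.1 kb, was called in WT. Results against WT are therefore given with and without this library. Strength is given as the rank of a peak in its own list by the deposited −log10 p (1 is the strongest), either as a position or as a percent of the list length, and as the deposited fold enrichment over the local background.

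The 7 loci differed widely in how often and how strongly they were called. DDIT4 had 15 regions and 165 peaks, GADD45B 9 and 140, NDRG1 8 and 115, IRS2 7 and 62, GADD45A 5 and 41, SESN2 4 and 27, and GADD45G 3 and 27. All 15 tagged lists held a peak at DDIT4, NDRG1, GADD45A, GADD45B and IRS2, and 12 of 15 did at SESN2 and GADD45G. Thus 5 of 7 genes had a peak in all 15 tagged lists, where 16.7% of all protein-coding genes did. The windows span 101544 to 164848 bp with the gene, against a median of 127466 bp for all protein-coding genes. Each locus is drawn with its regions in the map by distance from the TSS.

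**Figure D1:**
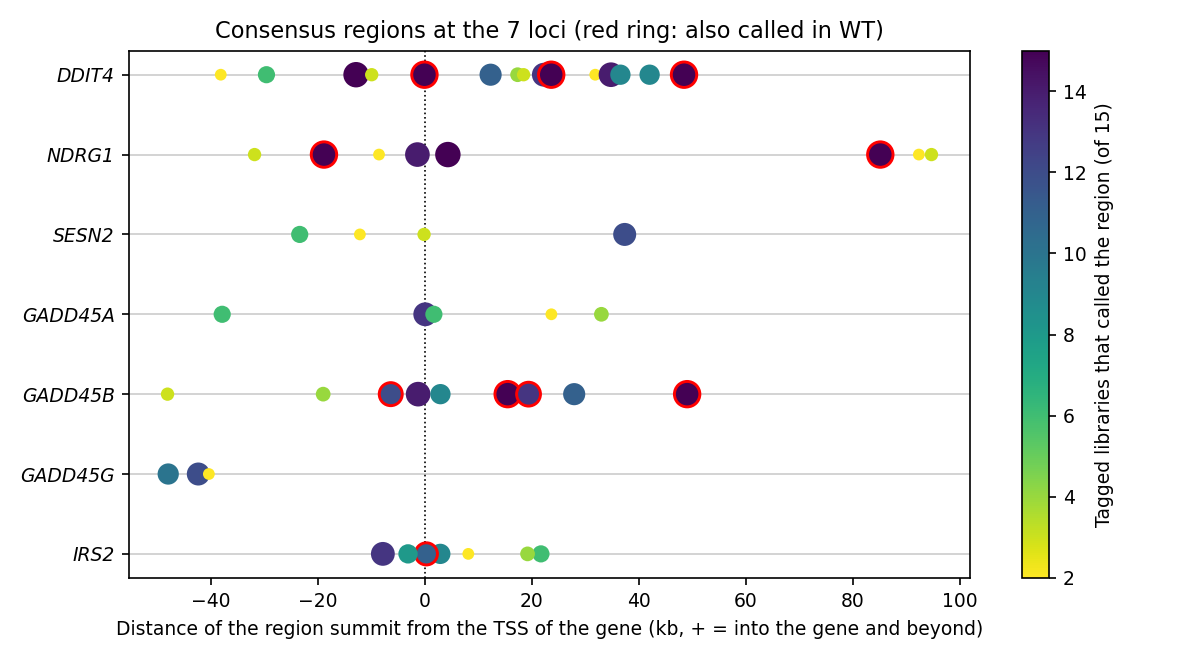
Consensus regions of the 7 loci by distance of the summit from the TSS of the gene in kb. Size and color give the number of tagged libraries, of 15, that called the region, and a red ring marks a region also called in WT. The regions called in all 15 tagged libraries are 4 at DDIT4, 3 at NDRG1 and 2 at GADD45B.

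By the median rank of the strongest peak, NDRG1, DDIT4 and GADD45B came before the other 4 genes. The strongest NDRG1 peak lay at 0.0144 to 0.492% of its list (median 0.0613%), and 99.975% of protein-coding genes had a weaker median. For DDIT4 the range was 0.0726 to 0.728% (median 0.271%), and for GADD45B it was 0.283 to 3.30% (median 1.69%). The GADD45B range overlapped that of GADD45A, which began at 3.19%. GADD45A had a median of 12.8%, then GADD45G with 23.9%, SESN2 with 34.1% and IRS2 with 35.4%, counting a list without a peak as 100%. The ranges of those 4 overlapped. Each tagged list had its strongest NDRG1 and DDIT4 peaks above its strongest SESN2, GADD45A, GADD45G and IRS2 peaks, as the plot of the strongest peak by library shows. In WT replicate 2 the strongest peak was at 1.22% for GADD45B, 2.72% for DDIT4, 16.0% for IRS2, 31.2% for NDRG1 and 58.9% for SESN2.

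**Figure D2:**
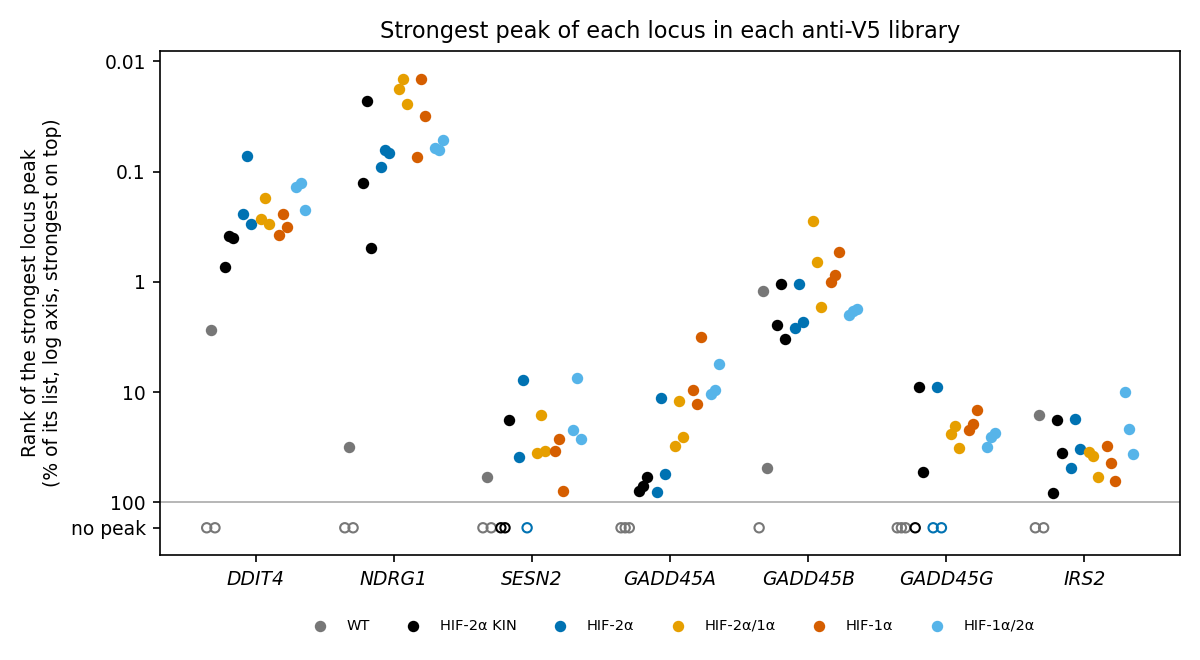
Rank of the strongest peak of each locus in each library, as a percent of the list on a log axis with the strongest on top. Each point is 1 library, open points at the bottom are libraries without a peak, and NDRG1 and DDIT4 are below 1% in all 15 tagged libraries.

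To ask which loci depended on the tag, the number of peaks per locus was compared between tagged and WT libraries by an exact permutation test, adjusted over 16928 genes. DDIT4 had 10.8 ± 3.19 peaks in tagged libraries (SD, n = 15) and 1.00 ± 1.73 in WT (n = 3), a difference of 9.80 (adjusted p = 0.0233, exact permutation test, where the unadjusted p of 0.00123 is the lowest this design allows). NDRG1 had 7.47 ± 1.77 against 1.00 ± 1.73 (adjusted p = 0.0233, exact permutation test). GADD45A had 2.73 ± 1.33 against none in any WT library (adjusted p = 0.0472, exact permutation test). These 3 of 7 genes passed, against 10.4% of all genes tested. GADD45B missed the threshold with 8.87 ± 2.95 against 2.33 ± 3.21 peaks (adjusted p = 0.0537, exact permutation test), as did IRS2 (4.07 ± 2.31 against 0.333 ± 0.577, adjusted p = 0.0942), GADD45G (1.8 ± 1.15 against none, adjusted p = 0.14) and SESN2 (1.67 ± 1.23 against 0.667 ± 1.15, adjusted p = 0.505). Without WT replicate 2, which held 15 of the 16 WT peaks here, no gene of the 16628 tested passed (4487 at an unadjusted p under 0.05), and fewer WT libraries also raise the lowest possible p. The differences were larger there, 10.8 peaks for DDIT4 and 7.47 for NDRG1, and DDIT4 and NDRG1 had an adjusted p of 0.0633 in the exact permutation test. The GADD45A call is close to the threshold and was lost in 7 of the 15 settings that left out 1 tagged library, and without any 1 WT library. It was also lost with a −log10 q of at least 5 (adjusted p = 0.125, exact permutation test). Lists cut to the 3984 peaks of the shortest tagged list gave GADD45A an adjusted p of 0.264 (exact permutation test). The lists of WT replicates 1 and 3, with 392 and 743 peaks, stayed shorter than this cut. Windows of 10 kb and 100 kb gave GADD45A an adjusted p of 0.143 and 0.168, and 10 kb gave DDIT4 0.0756 (exact permutation test). GADD45B passed with a −log10 q of at least 5 (adjusted p = 0.0295) and with 100 kb (adjusted p = 0.0443, exact permutation test). Over all genes, 2118 of 15321 passed with the stricter q and 2744 of 18380 with 100 kb.

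Of the 51 regions, 9 were called in all 15 tagged libraries (6.67% of all consensus regions were). They comprise 4 at DDIT4, 3 at NDRG1 and 2 at GADD45B. Of these 9, 7 were also called in WT replicate 2, where 29.4% of all regions called in 15 tagged libraries were. Only DDIT4 at −12.8 kb and NDRG1 at +4.33 kb were called in all tagged and no WT library. Both passed Fisher's exact test of calls in tagged against WT libraries (adjusted p = 0.0263, Benjamini-Hochberg over all 25783 regions). This is 2 of 51 regions, against 4.66% of all regions that passed in this direction. In the whole series 1201 regions had this pattern of calls and 1201 passed, so passing adds nothing to the pattern. When labels were permuted within each replicate number, no region of the series passed (adjusted p = 0.0994 for both, exact permutation test). The call was lost without any 1 of the 3 WT libraries, where no region of the series passed (Fisher's exact test, adjusted p = 0.118 without WT replicate 2) and the lowest possible p is higher. The difference in calls stayed at 100 percentage points for both regions in each of these settings. Where a region was called in WT replicate 2 its fold enrichment there was mostly far lower than in the tagged libraries, as the values below show.

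NDRG1 encodes a cytoplasmic stress protein, lies on the minus strand of chromosome 8, and had the strongest calls of all 7 genes. The region at −18.8 kb (summit at position 133320859 in hg38, intergenic) had rank positions of 37, 69 and 40 in the KIN libraries, 25, 18 and 15 with HIF-2α, 25, 17 and 15 with HIF-1α/2α, 3, 3 and 3 with HIF-2α/1α and 11, 3 and 5 with HIF-1α. All 6 libraries with the HIF-1α IDR thus ranked it above all 6 with the HIF-2α IDR and all 3 KIN libraries. In WT replicate 2 it was at position 2963. Its fold enrichment was 20.2 to 87.5 in tagged libraries and 3.11 in WT replicate 2.

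The NDRG1 region at +85.2 kb lies past the end of NDRG1 in an intron of CCN4, a secreted matrix protein whose TSS is 25711 bp away, so its assignment to NDRG1 rests on distance alone. It had rank positions of 5, 3 and 36 in KIN, 6, 13 and 4 with HIF-2α, 8, 25 and 32 with HIF-2α/1α, 25, 8 and 15 with HIF-1α and 8, 12 and 6 with HIF-1α/2α. These ranges overlapped between all lines. Its fold enrichment was 45.3 to 196 in tagged libraries and 3.75 in WT replicate 2. The region at +4.33 kb lies in the first part of the gene, 106 bp from the TSS of a shorter coding transcript. It was weaker, at positions 227 to 1310 and a fold enrichment of 7.50 to 45.9, and no WT library called it. A further region at −1368 bp was called in 14 tagged libraries and no WT library, missing in KIN replicate 3, while the other 4 NDRG1 regions were called in 2 or 3 tagged libraries each.

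DDIT4 lies on chromosome 10 and carried calls on both sides of the gene. The region at +48.5 kb, intergenic with the TSS of the chaperone gene DNAJB12 22565 bp away, had rank positions of 97, 55 and 67 in KIN, 16, 15 and 17.5 with HIF-2α, 23, 24 and 26 with HIF-1α/2α, 46, 36 and 93 with HIF-2α/1α and 56, 85 and 194 with HIF-1α. All 6 libraries with the HIF-2α IDR ranked it above all 6 with the HIF-1α IDR, the opposite order to NDRG1 at −18.8 kb. The KIN libraries fell among those with the HIF-1α IDR. Its fold enrichment was 23.8 to 128, and 3.32 in WT replicate 2.

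The DDIT4 promoter region, with its summit 50 bp before the TSS and 1 HRE core 4 bp from it, had positions of 336, 278 and 392.5 in KIN, 170, 229 and 466 with HIF-2α, 159, 136 and 262 with HIF-2α/1α, 81, 50 and 294 with HIF-1α and 18, 48 and 88 with HIF-1α/2α. Libraries with the HIF-1α DBD were mostly above those with the HIF-2α DBD, with HIF-1α replicate 3 as the exception. The fold enrichment was 10.6 to 94.3, and 3.92 in WT replicate 2. The region at +23.65 kb was more even, at positions 23 to 99 in all 15 tagged libraries with a fold enrichment of 32.1 to 85.7, but it was also the strongest DDIT4 region in WT replicate 2 (position 259, fold enrichment 9.39). The region at −12.8 kb was at positions 107 to 760 and had no call in WT. Of the remaining 11 DDIT4 regions, those at +34.8, +22.3 and +12.3 kb were called in 14, 13 and 11 tagged libraries and the others in 2 to 9, with no call in WT.

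**Figure D3:**
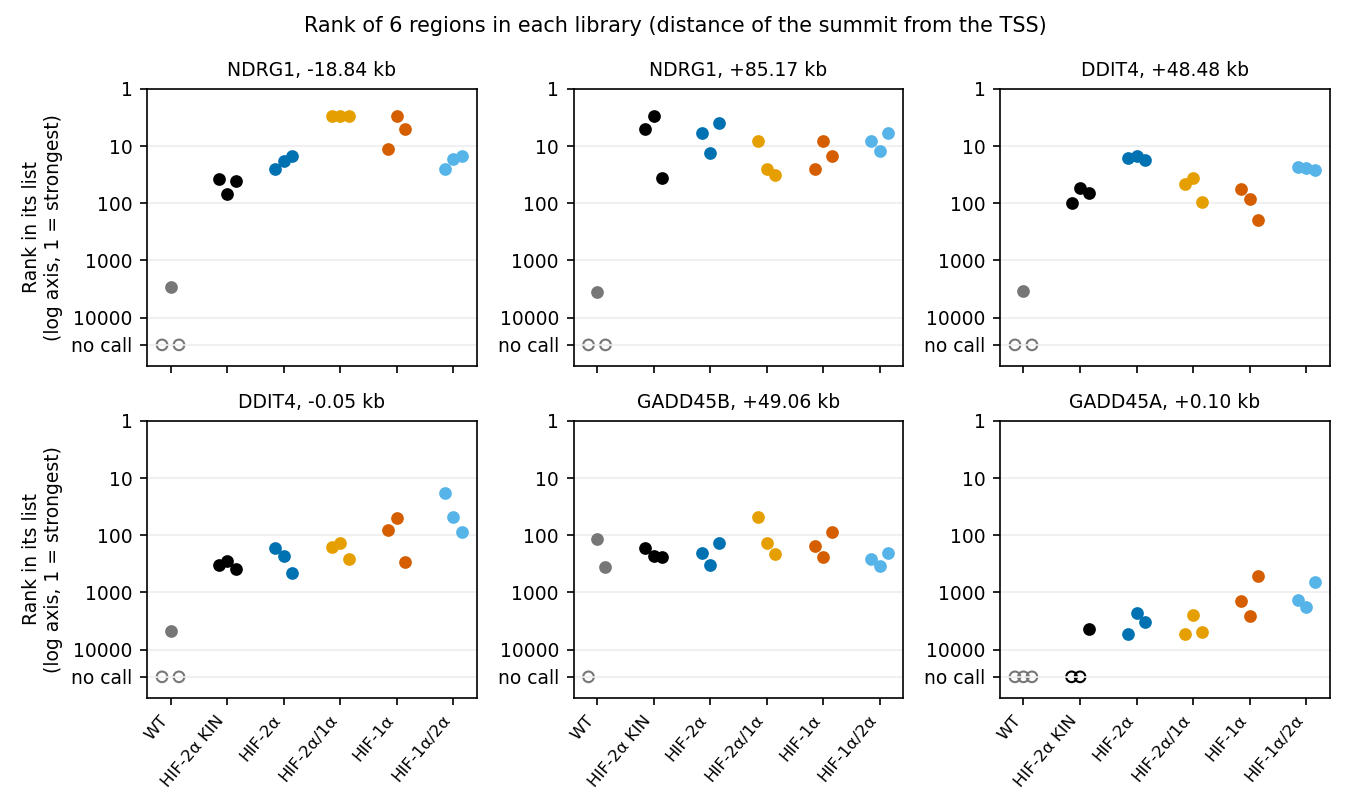
Rank position of 6 member regions in each library, on a log axis with the strongest on top. Points are the 3 replicates of a line, and open points at the bottom mark libraries without a call. At NDRG1 −18.84 kb the 6 libraries with the HIF-1α IDR lie above the 6 with the HIF-2α IDR, and at DDIT4 +48.48 kb the order is reversed.

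GADD45B, on chromosome 19, had its strongest regions away from the promoter. The region at +49.1 kb in an intron of GNG7, a G protein subunit gene, had positions of 170, 229 and 241 in KIN, 207, 327 and 136 with HIF-2α, 48, 138 and 209 with HIF-2α/1α, 152, 237 and 86 with HIF-1α and 260, 347 and 204 with HIF-1α/2α. It was the one member region called in 2 WT libraries, at position 116 with a fold enrichment of 24.7 in replicate 2 and position 361 with 6.16 in replicate 3, so that WT replicate 2 fell within the range of the tagged libraries (23.5 to 105). The region at +15.5 kb was at positions 98 to 486 in the tagged libraries with a fold enrichment of 17.7 to 78.8, and 4.37 in WT replicate 2. Closer to the gene, a region at −1234 bp was called in 14 tagged libraries and no WT library, but it was weak, with a median rank of 43.4% and a fold enrichment of 2.96 to 12.1. The region at +19.4 kb was called in 13 tagged libraries and in WT replicate 2, where its fold enrichment of 7.21 was within the tagged range of 5.03 to 23.5.

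GADD45A was called at its promoter. The region with its summit 99 bp after the TSS, in the UTR, was called in 13 tagged and no WT library, with positions of 4325 in KIN replicate 3 (no call in KIN replicates 1 and 2), 5282, 2334.5 and 3241.5 with HIF-2α, 5242.5, 2514 and 4858 with HIF-2α/1α, 1439, 2634.5 and 507 with HIF-1α and 1356, 1803 and 649.5 with HIF-1α/2α. The libraries with the HIF-1α DBD were above those with the HIF-2α DBD, apart from an overlap between HIF-1α replicate 2 and replicate 2 of HIF-2α and of HIF-2α/1α. The other 4 GADD45A regions were called in 2 to 6 tagged libraries, among them −37.9 kb and +1.71 kb in 6 each and +33.0 kb, in an intron of GNG12, in 4.

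GADD45G, SESN2 and IRS2 had no region shared by all tagged libraries. GADD45G had 3 regions, all between 40354 and 47957 bp upstream and none at the promoter, and the leading one at −42.3 kb was called in 12 tagged libraries, with only replicate 2 of the 3 HIF-2α libraries among them. The SESN2 promoter region at −123 bp was called in 3 tagged libraries, 1 with HIF-1α and 2 with HIF-1α/2α, while the region at +37.4 kb was called in 12 at positions 1311.5 to 13769.5. IRS2 had regions at −7827 bp (13 tagged libraries, median rank 65.5%) and at +304 bp in its UTR (11 tagged libraries and WT replicate 2, where its fold enrichment of 8.25 was within the tagged range of 3.19 to 23.6). Its coding exon at +2912 bp was called in 9 tagged libraries, none of them HIF-1α, and the region at −3121 bp in 8. Over all 51 regions, 5 had a summit within 1 kb of a coding TSS of their gene, and for 38 that gene had the nearest coding TSS.

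Next, the exogenous lines were used to compare the IDRs and the DBDs, with 6 libraries on each side. Each side holds 2 lines with 3 libraries each, and the tests took the libraries as units. The paper reports that expression from the L30 promoter varied even within stable lines. A difference between lines, such as expression level, cannot be told apart here from one of the swapped segment. By calls alone no member region differed, with 0 of 51 at an unadjusted Fisher's exact p under 0.05 for either comparison. Over all consensus regions 1.39% for the IDR and 0.555% for the DBD had such a p and none passed adjustment. The smallest p for the DBD was at GADD45G −48.0 kb, called in 2 of 6 libraries with the HIF-2α DBD and 6 of 6 with the HIF-1α DBD (Fisher's exact p = 0.0606, adjusted p = 1). The SESN2 region at −23.4 kb and the GADD45A region at +1.71 kb were each called in 1 of 6 against 5 of 6 (Fisher's exact p = 0.0801). For the IDR the smallest p was at DDIT4 +36.6 kb, called in 3 of 6 libraries with the HIF-2α IDR and 6 of 6 with the HIF-1α IDR (Fisher's exact p = 0.182). Lists cut to the 3984 peaks of the shortest tagged list left 24 member regions. Of these, 0 for the IDR and 1 for the DBD had an unadjusted Fisher's exact p under 0.05. Over all 7638 regions at that cut it was 152 and 169, and none passed adjustment. The part of list length in the differences at the regions named above was not tested.

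The fold enrichment of the 9 shared regions was compared with limma on the log2 scale after quantile normalization, adjusted over 1720 regions. None of the 9 passed. For the IDR, 1.45% of all regions passed, and the member differences (HIF-2α IDR minus HIF-1α IDR) ran from −0.42 at NDRG1 −18.8 kb (SE 0.33, 95% interval −1.07 to 0.23, adjusted p = 0.557) to 0.38 at GADD45B +49.1 kb (SE 0.34, interval −0.30 to 1.06, adjusted p = 0.614). At DDIT4 +48.5 kb the difference was 0.09 (interval −0.56 to 0.75). For the DBD, 2.56% of all regions passed, and the largest member difference was at the DDIT4 promoter, −0.58 (SE 0.33, interval −1.24 to 0.08, adjusted p = 0.391), lower with the HIF-2α DBD. HIF-1α differed from HIF-2α in 3.14% of all regions and exogenous HIF-2α from KIN in 0.0581%, with 0 of 9 member regions in both, and the member differences lay within −0.44 to 0.47 and −0.54 to 0.13. The member intervals for the IDR and the DBD reached from −1.24 to 1.06, so they include differences of that size.

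The outcome depended on the measure. Deposited fold enrichment divides by a local background, so the number of fragments at the summit was also recovered from the deposited values and divided by depth, and the same limma fit was run. This measure called many more of all 1720 regions, 43.7% for the IDR, 27.4% for the DBD and 28.8% for exogenous HIF-2α against KIN. Member regions passed at 3 of 9 for the IDR, 1 of 9 for the DBD and 2 of 9 for exogenous HIF-2α against KIN. With 9 regions these counts are near those shares, and a difference from them was not tested. DDIT4 at +48.5 kb was higher with the HIF-2α IDR by 0.75 (SE 0.11, limma adjusted p = 8.34e-05), and NDRG1 at +4.33 kb by 0.36 (SE 0.12, adjusted p = 0.0188). GADD45B at +49.1 kb was lower by 0.67 with the HIF-2α IDR (log2 difference −0.67, SE 0.11, adjusted p = 1.96e-04), while its difference in fold enrichment had the opposite sign. The DDIT4 promoter was at −0.56 for the DBD (SE 0.12, adjusted p = 0.00210), close to its difference in fold enrichment. DDIT4 at +48.5 kb was also higher with exogenous HIF-2α than in KIN, by 0.81 (SE 0.16, adjusted p = 0.00128), as was NDRG1 at −18.8 kb by 0.48 (SE 0.16, adjusted p = 0.0348). Before quantile normalization, replicate 2 had the highest summit fragments over depth in 45 of 45 sets of a member region and a tagged line, and the part of this in the result was not tested. On those values the groups overlapped at DDIT4 +48.5 kb and GADD45B +49.1 kb, with an IDR difference of 0.86 at DDIT4 +48.5 kb (exact permutation p = 0.065) and −0.58 at GADD45B +49.1 kb (exact permutation p = 0.16), against a median of −0.16 over all regions. NDRG1 −18.8 kb was not among the 3 regions that passed limma for the IDR. Its groups overlapped as well, with an IDR difference of −0.15 (exact permutation p = 0.725), near that median. That test passed 0 of the 1720 regions for the IDR and 0 for the DBD (98 and 43 at an unadjusted exact permutation p under 0.05), and since its smallest p is 0.005, a region can pass only where many others reach that p.

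**Figure D4:**
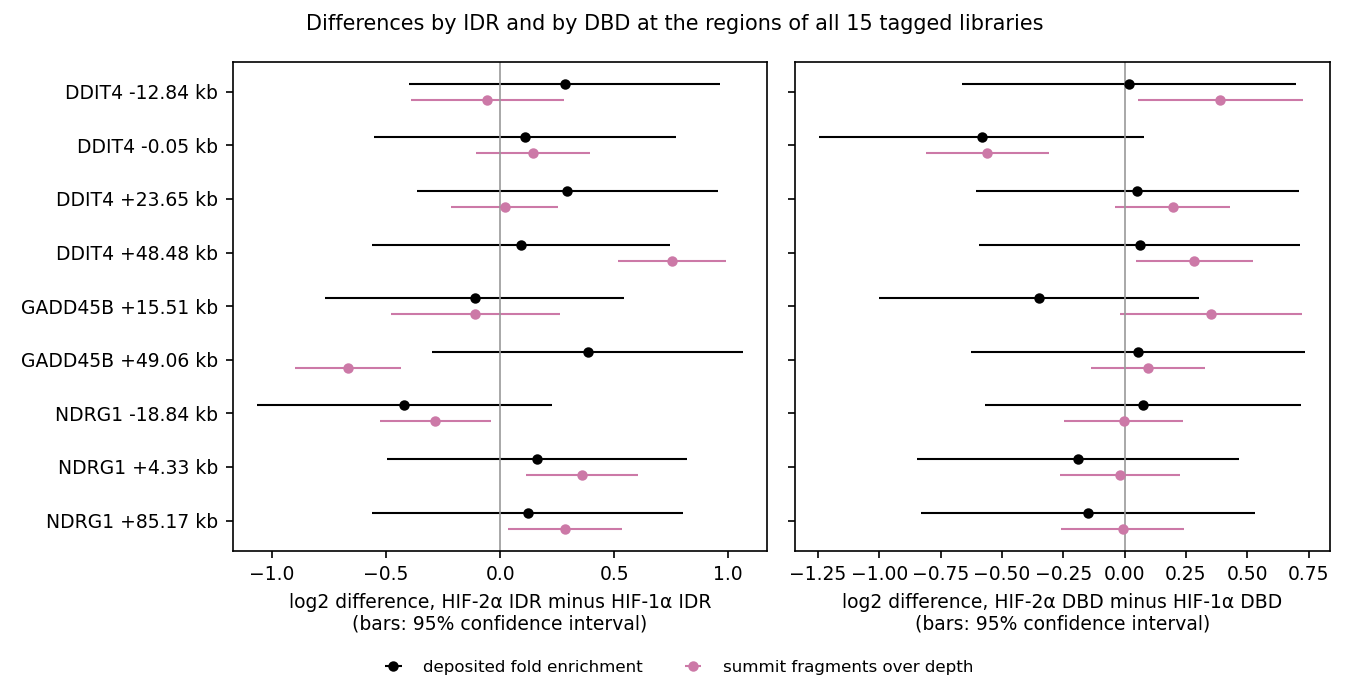
Log2 difference between the HIF-2α and HIF-1α IDR (left) and DBD (right) at the 9 member regions called in all tagged libraries. Black points use the deposited fold enrichment and pink points the summit fragments over depth, with 95% confidence intervals from limma. The black intervals all cross 0, and GADD45B +49.06 kb changes side with the measure for the IDR.

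The rank positions were then tested, a choice made after they were seen, by an exact permutation of IDR labels within each DBD (400 relabellings, smallest two-sided p 0.005). The positions of 6 against 6 libraries did not overlap at 2 of the 9 member regions, NDRG1 −18.8 kb and DDIT4 +48.5 kb, where 6.86% of all 1720 regions did not overlap. Both had an exact permutation p of 0.005 and an adjusted p of 0.0371, where 13.5% of all regions passed. With labels permuted within each replicate number as well, no region passed (adjusted p = 0.121 for both, exact permutation test). The log2 difference in position, HIF-2α IDR minus HIF-1α IDR, was 2.21 at NDRG1 −18.8 kb and −1.87 at DDIT4 +48.5 kb, against a median of −0.08 over all regions. As a percent of the list length (12371 to 20808 peaks with the HIF-1α IDR and 5906 to 20651 with the HIF-2α IDR), neither passed (adjusted p = 0.0768 and 0.147 by exact permutation), nor did any other of the 1720 regions (427 at an unadjusted exact permutation p under 0.05). The difference at NDRG1 −18.8 kb was 2.74 on that scale with the groups still apart, at DDIT4 +48.5 kb it was −1.33 with overlap, and the median over all regions was 0.45. Both calls were lost without any 1 HIF-2α replicate or without HIF-1α replicate 1, where no region of the 1720 passed. In these settings the exact permutation p stayed at 0.005 for NDRG1 −18.8 kb and was 0.005 or 0.01 for DDIT4 +48.5 kb. The NDRG1 call was also lost without any 1 HIF-1α/2α replicate (exact permutation p = 0.01), where 180 to 188 regions passed. Adjusted p-values by exact permutation were 0.0428 to 0.0732 over both regions and the 12 libraries left out. For the DBD, 11.6% of all regions passed and 5.99% did not overlap, and no member region did either. The DDIT4 promoter came nearest, with a log2 difference of 1.69 (lower rank with the HIF-2α DBD, exact permutation p = 0.03, adjusted p = 0.113).

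With regions in at least 12 tagged libraries taken in, 19 member regions could be fitted, and the GADD45A promoter was lower with the HIF-2α DBD, by a log2 difference in fold enrichment of −1.27 (SE 0.35, limma adjusted p = 0.0319). It was the 1 member region of 19 to pass for the DBD, where 2.48% of all regions did. The 2 KIN libraries without a call were left out of the fit. For the IDR no member region passed at this setting, where 1.58% of all regions did. The largest differences were 1.07 at NDRG1 −1368 bp, 0.96 at SESN2 +37.4 kb and 0.94 at IRS2 −7.8 kb (limma adjusted p = 0.0947, 0.168 and 0.172). These fits use only libraries that called the region.

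Other genes of the mTOR pathway, with stress response genes and paralogs of the members, gave a wider view. Of 36 genes in 5 groups, 12 had a locus peak in all 15 tagged lists (33.3%), against 16.7% of all protein-coding genes. Of the 33 that could be tested, 2 passed the test of peak number against WT, where 10.4% of all genes tested passed. Both had more peaks in tagged libraries, and both are in the stress response and paralog group. Those 2, TRIB3, a pseudokinase of the ATF4 stress response, and CDKN1A, the cell cycle inhibitor p21 (named after its value was seen), had 9.00 and 3.67 peaks in tagged libraries against 0.667 and 0 in WT (adjusted p = 0.0233 for both, exact permutation test). In the stress response and paralog group, 4 of 11 genes had peaks in all tagged lists, among them TRIB3, with its strongest peak at a median of 0.356% of the list, and IRS1, the paralog of IRS2, at 2.00% against 35.4% for IRS2. Of the mTOR complex subunits 3 of 6 had peaks in all tagged lists, led by RPTOR (median 0.176%), the scaffold of mTORC1, and MLST8 (7.32%). Upstream of the complex it was 2 of 7, with STK11 at 3.38% and TBC1D7, present in 14 lists, at 10.8%. Of the amino acid and energy sensors it was 2 of 7, with CASTOR1 at 6.59% and NPRL2 at 6.72%, and of the effectors 1 of 5, with ULK1 at 3.15% and TFEB, present in 13 lists, at 31.8%. None of the genes in these 4 groups passed the test of peak number. RPTOR, MLST8, STK11, CASTOR1 and ULK1 also had a peak in 2 of the 3 WT lists each. NPRL2 and TBC1D7 had one in 1 WT list each, and TFEB in 0. RPTOR had 15.6 ± 5.14 peaks in tagged and 5.00 in WT libraries on average (adjusted p = 0.0609, exact permutation test), in a window made larger by the length of the gene.

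Genes more than 1 Mb away were ordered by the mean absolute difference from each member in the percent rank of the strongest locus peak over the 18 lists. The 2 closest to DDIT4 were AOX1 (mean difference 0.256 percentage points) and HPCAL1 (0.285). For NDRG1 they were S100P and the neighboring ENSG00000170846, with equal values (0.653 each), and for GADD45B IL21R and GTF3C1, also with equal values (0.673 each). The weaker members had no such close match, with GADD45G nearest to CRYAA (5.25) and TBCCD1 (5.91), GADD45A to CMKLR1 (6.68) and H4C16 (6.99), IRS2 to ACTN1 (8.24) and RUNX2 (10.7), and SESN2 to RALGPS1 and ANGPTL2 (9.98 each).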

How the data were processed

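Cut&Run reads of 18 anti-V5 and 18 IgG libraries were aligned by the authors to hg38 with Bowtie2 2.3.4.1 (fragments of 10 to 700 bp) and handled with SAMtools 1.8. The authors called peaks per library with MACS2 against the IgG library (q-value threshold 0.01, maximum gap 400 bp, duplicates kept) and removed blacklisted regions with bedtools 2.28.0, and replicates were not pooled. The deposited narrowPeak lists give a fold enrichment (a ratio over the local background), a −log10 p, a −log10 q and a summit position per peak. They hold no total read count, and a fold at a lightly covered background depends on few control fragments.

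Samples were grouped by their titles and no column was left unmapped. Summit fragments and depth were recovered by solving the deposited fold and −log10 p for a whole number of fragments, which matched within 0.001 for all peaks of 17 libraries. In HIF-2α/1α replicate 2 the pileup was scaled (factor 0.950), and its fragments are estimates. Ranks used the deposited −log10 p. Genes were taken from GENCODE 44, and distances are positive in the direction of transcription. Calls were compared with Fisher's exact test over all regions, peak numbers with exact permutation, and log2 fold with limma 3.58.1 (R 4.3.3) over the 1720 regions called in all 15 tagged libraries, 1 mean per line. All p-values are two-sided and adjusted by Benjamini-Hochberg. Python 3.11.15 and SciPy 1.17.1 were used. The tests were checked on simulated data. Replicates are described as biological in the series design.

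The genes, the pathway list and the tests were chosen with earlier results of these data known. For each gene the most widely called regions are described, the 2 pathway genes per group with the smallest median percent rank are named, and the 2 most alike genes are named for each gene. Alternatives were a stricter q, lists cut to the length of the shortest tagged list, a stricter merge, other windows and other scalings. Each library was also left out, and the replicate number was used as a block. Tests of rank and of summit fragments by permutation were added after the data were seen. Sequences of 1 DDIT4 region and of NDRG1 are not reported here.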

Additional observations from a re-analysis of the deposited data

How the results depend on the processing

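The lists are short in WT and hold no reads below a peak, so a region without a call may still have signal. Against WT, 2 of 51 member regions passed. It was 1 of 18 with a window of 10 kb and 6 of 96 with 100 kb, where 1201 of all 25783 regions passed. With a −log10 q of at least 5 it was 3 of 47 (1140 of 22709 over all regions). With lists cut to the shortest tagged list (3984 peaks) it was 3 of 24 (1088 of 7638 over all regions). The number of genes that passed by peak number (3 of 7) was 1 with 10 kb, where the SESN2 difference turned to −0.467. Over all genes, 717 of 13426 passed with 10 kb and 1757 of 16928 before. With 100 kb, SESN2 and GADD45B passed (exact permutation, adjusted p = 0.0493 and 0.0443), where 2744 of 18380 genes passed. Leaving out 1 library gave 0 to 4 regions and 0 to 4 genes. Both counts were 0 without any 1 WT library, where no region or gene of the series passed. It was 4 of 51 regions without HIF-2α KIN replicate 1, where 1611 of all 25730 regions passed. It was 4 genes without that library or HIF-2α replicate 1 or 3, where 2835, 2143 and 2511 of all genes passed. Member regions passing limma on fold enrichment (0 in each comparison) became 3 (IDR), 1 (DBD), 2 (HIF-1α minus HIF-2α) and 2 (exogenous HIF-2α minus KIN) with summit fragments over depth, and 1 (DBD) with regions in at least 12 tagged libraries. By rank position 2 passed for the IDR. The cause of these changes was not tested. Over all 1720 regions the limma counts of 25, 44, 54 and 1 became 751, 471, 707 and 495 with summit fragments. Under the other settings, leave-one-out included (0 to 0), no member region passed limma, and none passed the call comparisons of IDR or DBD.

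The direction of small differences was not stable. The IDR difference of the DDIT4 promoter was −0.074 by normal score of the rank, and −0.063 to 0.30 with 1 library left out. That of DDIT4 +48.5 kb was −0.058 to 0.18 with 1 library left out, and that of GADD45B +49.1 kb was −0.38 by normal score and −0.67 by summit fragments. For the DBD, 1 library left out gave −0.088 to 0.17 at DDIT4 +48.5 kb, −0.033 to 0.23 at NDRG1 −18.8 kb and −0.20 to 0.27 at GADD45B +49.1 kb. The DBD difference was −0.0035 at NDRG1 −18.8 kb by summit fragments and −0.0050 at GADD45B +49.1 kb by normal score.

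Same-numbered libraries of different lines had correlations of −0.03 to 0.15 in their deviations from the line means (30 pairs, median 0.05), against a median of −0.03 for other pairs. Each of the 15 libraries was on average closest to those of its own number. The library numbers in the deposited names also run in sequence within each replicate number. Both are hints, and no label names a shared batch. With the replicate block, 0 of all 25783 regions passed against WT. The smallest adjusted p of the series was 0.0994 (exact permutation), the value of both member regions, so this setting could not single them out. By peak number 4 genes passed with GADD45B added (exact permutation, adjusted p = 0.0428), where 1833 of 16928 genes did. With the block, limma called 54 (IDR), 58 (DBD), 64 (HIF-1α minus HIF-2α) and 4 (exogenous HIF-2α minus KIN) of 1720 regions, with 0 of 9 member regions in each. By rank position with the block, NDRG1 −18.8 kb and DDIT4 +48.5 kb had an unadjusted p of 0.03125 and an adjusted p of 0.121 (exact permutation). There 0 of the 1720 regions passed.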
